A study of Mus musculus with 48 samples.

Results

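Transcripts of 6 carriers of the renal tubule, Slc5a1, Slc5a2, Slc5a8, Slc5a12, Slc2a1 and Slc2a2, were followed in mouse kidneys after removal of most of the renal mass. The genes were chosen by name, with earlier results of these data known, so their counts beside those of all genes are a description. Each was represented by the probe set with 1 gene symbol that had the highest mean over the 48 arrays. They are 6 of 13174 genes tested. RNA came from whole kidneys, with 1 Affymetrix array per mouse. Mice were 9 weeks old when they underwent subtotal nephrectomy (Nx) or a sham operation, and kidneys were studied at day 2, day 28 and day 53. The strains were FVB, which the design calls predisposed to renal lesions, and C57BL/6 (B6), which it calls not predisposed. The 12 groups, FVB Nx, FVB sham, B6 Nx and B6 sham at each day, held 4 mice each, and 4 arrays per group limit the precision. Values are on a log2 scale as deposited, so a difference of 1 is a doubling of the signal.

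Filtered glucose is taken up from the tubular fluid in the proximal tubule. The sodium-coupled carrier of Slc5a2 (Sglt2) does most of this work at the apical face of the early segments, and that of Slc5a1 (Sglt1) takes up the remainder further down. Glucose then leaves the cell at its blood side by passive carriers, Slc2a2 (Glut2) in the early segments and Slc2a1 (Glut1) in later segments and in other nephron cells such as those of the collecting duct. Slc5a8 (SMCT) and Slc5a12 (SMCT2) belong to the Slc5 family by sequence but carry lactate and other monocarboxylates with sodium at the apical face, so a heading of glucose transporters holds for only 4 of the 6 genes.

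Marker lists were used to look for transcripts of the tubule and of other tissues. They do not show which cells gave the signal of the 6 genes. The proximal tubule list (7 of 8 genes measured, among them the endocytic receptors Lrp2 and Cubn) had group means of 12.16 to 13.27 on Nx arrays and 13.28 to 13.49 on sham arrays. Transcripts of the exocrine pancreas were also present: the mean of 8 measured pancreas genes of 9 listed lay above 5 on 16 of 24 Nx arrays and on 3 of 24 sham arrays. It ranged from 2.32 to 15.01 on Nx arrays and from 2.28 to 11.24 on sham arrays. Slc2a2 is also the glucose carrier of insulin-producing cells, hepatocytes and enterocytes, and Slc5a1 of enterocytes. Ins2, the insulin gene, lay at the lowest value of the table on 40 of 48 arrays and reached at most 8.75 on Nx and 2.31 on sham arrays, and Ins1 and Pdx1 did not pass the filter on low values. Liver Alb ranged from 2.53 to 9.53 on Nx and from 6.63 to 13.05 on sham arrays, and 0 of 4 intestinal markers passed the filter. The mean of 3 measured liver genes of 4 listed reached 10.29 in the FVB sham group of day 28 and at most 6.675 in any other group. It was 5.71 ± 3.06 in FVB sham and 4.38 ± 0.27 in FVB Nx kidneys at day 28 (SD, n = 4). Arrays with a pancreas mean above 5 are called arrays that held pancreas transcripts. With these left out, 1 Nx array remained in each strain at day 2 and at day 28 and 2 at day 53. Of the sham arrays, 2 remained in FVB and 3 in B6 at day 28, and all 4 in the other groups. At day 53 the 2 FVB Nx arrays kept had pancreas means of 2.96 and 4.12, against 2.28 to 2.35 in FVB sham kidneys. The difference between the 3 prime and 5 prime Gapdh control probe sets, which tracks RNA integrity, was 0.30 ± 0.10 in FVB Nx and 0.16 ± 0.03 in FVB sham kidneys at day 2, and 0.31 ± 0.08 in B6 Nx and 0.14 ± 0.04 in B6 sham kidneys (SD, n = 4). The same difference for Actb was lower in FVB Nx kidneys, at 2.21 ± 0.12 in Nx and 2.40 ± 0.13 in sham kidneys at day 2 and 1.91 ± 0.05 in Nx and 2.17 ± 0.06 in sham kidneys at day 53. It was 2.19 ± 0.14 in B6 Nx and 2.21 ± 0.18 in B6 sham kidneys at day 2. Of 4 adipose genes listed, 3 were measured. Their mean in B6 was 5.35 ± 1.41 after Nx and 7.85 ± 0.77 after sham at day 2. It was 8.055 ± 1.54 after Nx and 4.83 ± 1.98 after sham at day 28. At day 53 it was 7.32 ± 1.68 after Nx and 2.82 ± 0.10 after sham (SD, n = 4). FVB means at the 3 days were 6.72, 5.52 and 5.82 after Nx and 7.08, 4.41 and 5.78 after sham. The part of the pancreas, liver and adipose transcripts and of RNA integrity in the results was not tested, other than by the values given beside them.

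All 6 genes passed the filter on low values, with no array at the lowest value of the table. Compared with sham, transcripts of the early apical glucose carrier Slc5a2 and of the monocarboxylate carrier Slc5a12 fell in 5 of 6 comparisons each, and Slc2a2 and Slc2a1 fell in 3 of 6 each. Slc5a1 rose in 5 of 6 comparisons and Slc5a8 in 3 of 6. Fold changes and adjusted p-values come from limma, fitted over all 13174 genes with 0.05 as the threshold. In FVB mice at day 2, 4 of the 6 genes fell and 2 rose, where 30.0% of all genes tested fell and 24.8% rose. At day 28, 1 fell and 1 rose (all genes 8.81% lower and 7.35% higher), and at day 53, 3 fell and 1 rose (all genes 27.8% lower and 25.9% higher). In B6 mice 3 fell and 1 rose at day 2 (all genes 24.4% lower and 20.2% higher), 3 fell and 1 rose at day 28 (all genes 9.14% lower and 9.85% higher), and 2 fell and 2 rose at day 53 (all genes 6.68% lower and 8.03% higher). Values of the 4 Nx and the 4 sham mice did not overlap for 4, 3 and 3 of the 6 genes in FVB at day 2, day 28 and day 53, against 43.9%, 21.2% and 46.1% of all genes tested. In B6 they did not overlap for 5, 2 and 4, against 40.1%, 19.6% and 21.7%. Over the 6 genes the median log2 difference was -0.70, -0.20 and -0.32 in FVB and -0.57, -0.22 and -0.08 in B6, and over all genes tested it lay between -0.03 and -0.01 in these comparisons.

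**Figure D1:**
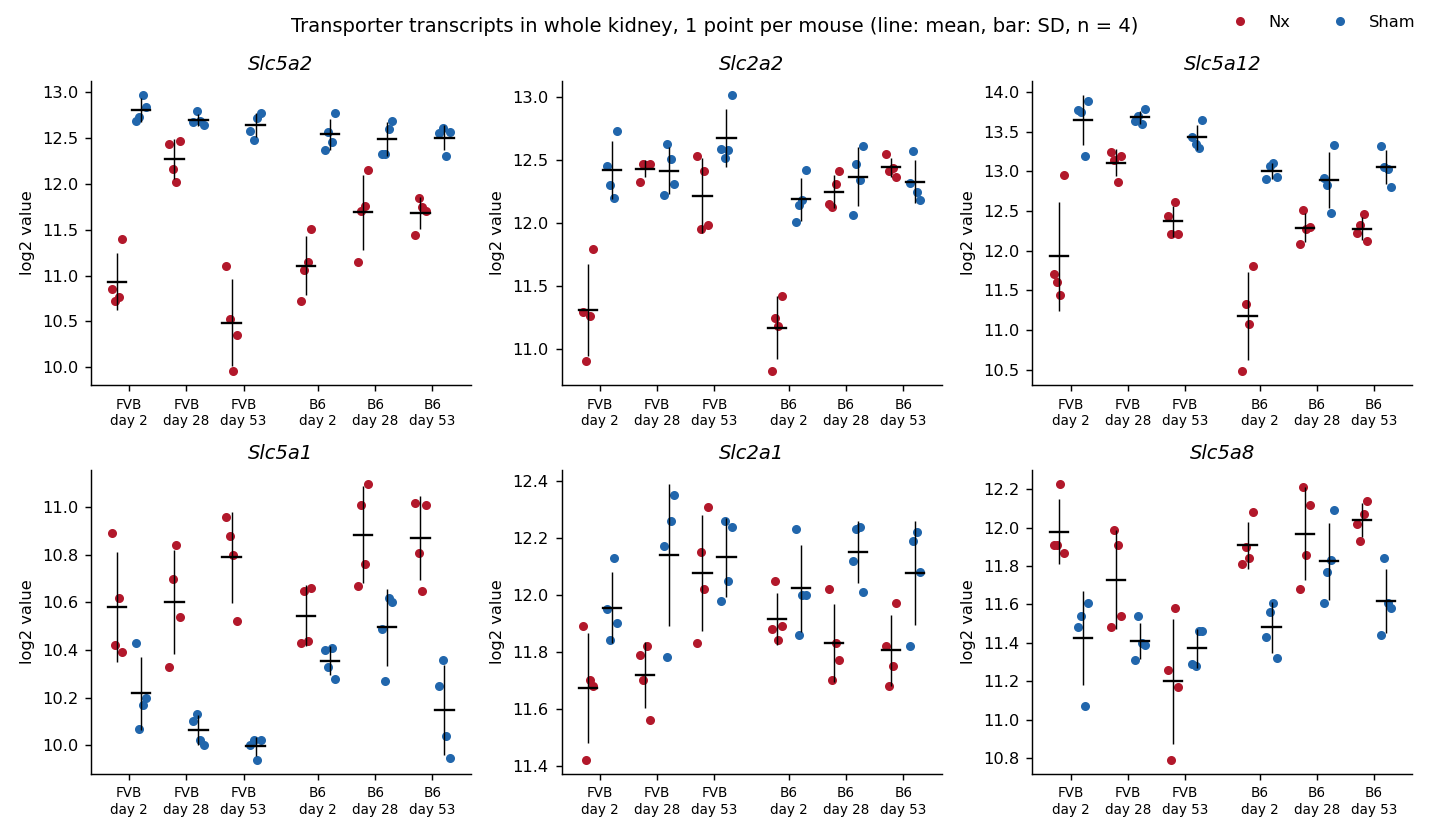
Log2 values of the 6 carrier transcripts (vertical axes, each with its own range) in FVB and B6 kidneys at day 2, day 28 and day 53 after surgery (horizontal axes), 1 point per mouse, Nx in red and sham in blue, with the mean as a line and the SD as a bar (n = 4). Slc5a2 in Nx kidneys lies below all sham values of its strain and day in all 6 comparisons, and Slc5a1 lies above them in 5 of 6.

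Slc5a2, the high-capacity apical glucose carrier of the early proximal tubule (gene at chr7:128265683-128272430, GRCm38.p6), fell most of the 6 genes, by 2.16 on the log2 scale in FVB Nx kidneys at day 53. Each of the 4 Nx mice lay below each of the 4 sham mice in all 6 comparisons. At day 2 the probe set read 10.85, 10.72, 10.77 and 11.40 in FVB Nx kidneys, against 12.68, 12.73, 12.97 and 12.84 in FVB sham kidneys. FVB Nx kidneys were 3.65-fold lower (-1.87, SE 0.18, adjusted p = 2.04e-11), a gap wider than the whole spread of either group. In whole-kidney RNA, fewer cells of a type and less RNA per cell cannot be told apart, for this gene as for those that follow. At day 28 it read 12.43, 12.16, 12.02 and 12.47 in FVB Nx kidneys, against 12.67, 12.79, 12.69 and 12.64 in FVB sham kidneys. The Nx values stood just under the sham values, and the difference did not pass the threshold (-0.43, SE 0.18, adjusted p = 0.097; 95% interval -0.78 to -0.07). It passed in a fit to its 8 arrays alone (adjusted p = 0.0395) and with array weights (adjusted p = 0.027); over all alternatives the adjusted p ranged from 0.027 to 0.528. At day 53 it read 10.53, 9.96, 10.35 and 11.10 in FVB Nx kidneys, against 12.58, 12.48, 12.72 and 12.77 in FVB sham kidneys. These 4 Nx values included the lowest of all 48 arrays, 9.96, and the mean was 4.46-fold lower (-2.16, SE 0.18, adjusted p = 5.02e-13).

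In the B6 strain the same carrier stayed lower at every day. Slc5a2 at day 2 measured 11.06, 11.15, 11.51 and 10.72 in B6 Nx kidneys, against 12.37, 12.56, 12.46 and 12.77 in B6 sham kidneys, and Nx kidneys were 2.69-fold lower (-1.43, SE 0.18, adjusted p = 1.93e-08). At day 28 the values were 11.15, 11.70, 11.76 and 12.15 in B6 Nx kidneys, against 12.33, 12.33, 12.60 and 12.69 in B6 sham kidneys, with Nx kidneys 1.74-fold lower (-0.80, SE 0.18, adjusted p = 0.00104). Mouse 3 of the Nx group was lowest, and its array was also the only Nx array of that group without pancreas transcripts. At day 53 the values were 11.44, 11.85, 11.75 and 11.70 in B6 Nx kidneys, against 12.55, 12.61, 12.30 and 12.56 in B6 sham kidneys, with Nx kidneys 1.76-fold lower (-0.82, SE 0.18, adjusted p = 0.00101). Without the arrays that held pancreas transcripts the log2 differences were -1.95, -0.31 and -1.92 in FVB and -1.48, -1.39 and -0.71 in B6. The day 2 and day 28 values then rest on 1 Nx array in each strain, in B6 at day 28 that of mouse 3. The day 53 values rest on 2 Nx arrays in each strain, and both passed the threshold. The 2 FVB Nx arrays kept at day 53 had pancreas means of 2.96 and 4.12, under the cut of 5 but above the sham arrays. A fit to only the 8 arrays of the comparison gave B6 day 28 an adjusted p of 0.0657, and over all alternatives to that comparison it ranged from 4.04e-05 to 0.0657.

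The probe set used for Slc5a2 is one that may hybridise with more than 1 transcript by its type. The other Slc5a2 probe set on the array gave -1.99, -0.51 and -2.26 in FVB and -1.49, -0.80 and -0.92 in B6, the same direction each time. Across the 12 groups, the 6 sham groups held the 6 highest mean levels, 12.80 ± 0.13 (FVB sham, day 2) down to 12.49 ± 0.18 (B6 sham, day 28; SD, n = 4), and neighbours among them lay within the SD of one another. Below them came FVB Nx at day 28 (12.27 ± 0.22), then B6 Nx at day 28 (11.69 ± 0.41) and day 53 (11.69 ± 0.17), at the same mean. The 3 lowest groups were B6 Nx at day 2 (11.11 ± 0.33), FVB Nx at day 2 (10.94 ± 0.32) and FVB Nx at day 53 (10.48 ± 0.47), whose neighbours also lay within their SD.

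Promoter sequence is shown for Slc2a2 and Slc5a1, a carrier that fell and one that rose. The windows run from 250 bases before to 50 bases after the annotated start in RefSeq (GRCm38.p6, plus strand in both), and 4 of the 6 genes had an entry. Slc5a2 and Slc5a12 did not. Capitals mark matches to motifs searched on both strands: GTTAAT, part of a site of HNF1, CAAAGTCCA, a core site of HNF4, and ACGTG and GCGTG, the core bound by hypoxia-inducible factors.
Slc2a2, chr3:28697653-28697952: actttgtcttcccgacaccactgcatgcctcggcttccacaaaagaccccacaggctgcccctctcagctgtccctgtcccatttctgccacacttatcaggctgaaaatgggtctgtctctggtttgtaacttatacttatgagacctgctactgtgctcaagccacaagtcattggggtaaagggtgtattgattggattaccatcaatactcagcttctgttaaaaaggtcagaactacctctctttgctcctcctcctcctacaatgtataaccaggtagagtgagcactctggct
Slc5a1, chr5:33103969-33104268: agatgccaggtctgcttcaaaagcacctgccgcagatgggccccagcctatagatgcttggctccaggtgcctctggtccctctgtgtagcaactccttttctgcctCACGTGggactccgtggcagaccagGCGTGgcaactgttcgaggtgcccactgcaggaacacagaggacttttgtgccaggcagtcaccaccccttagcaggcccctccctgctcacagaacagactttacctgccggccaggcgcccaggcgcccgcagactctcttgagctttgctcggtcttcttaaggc
The Slc2a2 window held none of these motifs, and GTTAAT and CAAAGTCCA were in none of the 4 windows. The Slc5a1 window held CACGTG, which reads ACGTG on either strand and counts as 2 overlapping matches, and 1 GCGTG. The Slc2a1 window held 1 ACGTG and 1 GCGTG, and the Slc5a8 window 1 GCGTG. Of 32851 promoter windows of the same length, 7.1% held GTTAAT, 0.475% CAAAGTCCA, 19.6% ACGTG and 32.4% GCGTG. The matches are thus a description of the letters and were not tied to the expression values.

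Slc5a1, the high-affinity apical glucose carrier of the later proximal tubule (chr5:33104219-33162699), moved the other way. It rose at day 28 and day 53 in both strains and at day 2 in FVB, with its largest differences at day 53. The FVB values at day 2 were 10.89, 10.42, 10.62 and 10.39 in FVB Nx kidneys, against 10.43, 10.07, 10.17 and 10.20 in FVB sham kidneys; 2 Nx mice lay above all sham mice and 2 within their range (0.36, SE 0.11, adjusted p = 0.00643). That call was lost without mouse 1 of the FVB Nx day 2 group (0.26, adjusted p = 0.0582), in a fit to its 8 arrays alone (adjusted p = 0.0526) and when the medians of all probe sets with 1 symbol were made equal (0.14, adjusted p = 0.327). Its adjusted p ranged from 0.000409 to 0.327 over all alternatives. At day 28 the FVB values were 10.33, 10.70, 10.84 and 10.54 in FVB Nx kidneys, against 10.10, 10.13, 10.02 and 10.00 in FVB sham kidneys, with each Nx mouse above each sham mouse (1.45-fold higher; 0.54, SE 0.11, adjusted p = 0.000631). At day 53 they were 10.88, 10.80, 10.52 and 10.96 in FVB Nx kidneys, against 10.00, 10.02, 9.94 and 10.02 in FVB sham kidneys, again without overlap (1.73-fold higher; 0.79, SE 0.11, adjusted p = 1.51e-07). The FVB sham mice at that day were the lowest group of the 12.

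Slc5a1 in B6 mice measured 10.65, 10.44, 10.66 and 10.43 in B6 Nx kidneys, against 10.40, 10.33, 10.41 and 10.28 in B6 sham kidneys at day 2. The Nx values began just above the highest sham value, and the difference did not pass the threshold (0.19, SE 0.11, adjusted p = 0.189). At day 28 the B6 values were 10.67, 11.01, 10.76 and 11.10 in B6 Nx kidneys, against 10.49, 10.27, 10.62 and 10.60 in B6 sham kidneys, without overlap and with Nx higher (0.39, SE 0.11, adjusted p = 0.0121). The day 28 call was lost without mouse 9 of the Nx group (0.32, adjusted p = 0.0549) or mouse 3 of the sham group (0.32, adjusted p = 0.0612). It was also lost in a fit to its 8 arrays alone, with equal array medians (0.34 over the genes tested, adjusted p = 0.0501) and without the arrays that held pancreas transcripts (0.17, adjusted p = 0.547), as was the FVB call at day 28 (0.26, adjusted p = 0.513); over all alternatives the adjusted p ranged from 0.00107 to 0.547 in B6 and from 0.000119 to 0.513 in FVB. At day 53 the B6 values were 11.02, 10.81, 10.65 and 11.01 in B6 Nx kidneys, against 10.25, 10.36, 10.04 and 9.95 in B6 sham kidneys, and Nx kidneys were 1.65-fold higher with no overlap (0.73, SE 0.11, adjusted p = 1.3e-05). The day 53 differences without the pancreas arrays were 0.74 in FVB and 0.59 in B6, and both passed. A different Slc5a1 probe set gave 0.54, 0.39 and 0.79 in FVB and 0.26, 0.44 and 0.40 in B6. Its FVB day 28 difference had an adjusted p of 0.0504.

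By mean level, the 6 Nx groups held the 6 highest places, 10.88 ± 0.20 (B6 Nx, day 28) down to 10.54 ± 0.13 (B6 Nx, day 2; SD, n = 4). The sham groups followed, 10.49 ± 0.16 (B6 sham, day 28) down to 9.99 ± 0.04 (FVB sham, day 53). Neighbours in this order lay within an SD of one another except the last pair, FVB sham at day 28 (10.06 ± 0.06) and at day 53.

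Slc2a2, the passive carrier through which glucose leaves early proximal cells (chr3:28697903-28728361), fell at day 2 in both strains and was near its sham level at day 28. Day 2 values were 11.29, 10.90, 11.26 and 11.79 in FVB Nx kidneys, against 12.45, 12.30, 12.20 and 12.73 in FVB sham kidneys. No Nx value reached the lowest sham value, and FVB Nx kidneys were 2.16-fold lower (-1.11, SE 0.15, adjusted p = 4.95e-08). B6 kidneys at the same day gave 11.24, 11.18, 11.42 and 10.82 after Nx, against 12.01, 12.14, 12.18 and 12.42 after sham, 2.03-fold lower and again without overlap (-1.02, SE 0.15, adjusted p = 4.78e-07). With the mean of the pancreas genes as a covariate the day 2 differences were -1.12 in FVB and -1.03 in B6, and both passed. Without the arrays that held those transcripts the differences were -1.14 and -0.95, with 1 Nx array left in each strain.

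At day 28, Slc2a2 was 12.33, 12.47, 12.46 and 12.47 in FVB Nx kidneys, against 12.22, 12.63, 12.51 and 12.31 in FVB sham kidneys, with the groups interleaved (0.02, SE 0.15, adjusted p = 0.999; 95% interval -0.29 to 0.32). B6 mice had 12.15, 12.13, 12.31 and 12.41 after Nx and 12.06, 12.47, 12.34 and 12.61 after sham (-0.12, SE 0.15, adjusted p = 0.646; interval -0.43 to 0.18), again overlapping. The part of the liver transcripts in the FVB sham values of day 28 was not tested. At day 53 the FVB values were 11.95, 12.41, 11.98 and 12.53 in FVB Nx kidneys, against 12.59, 12.52, 12.58 and 13.02 in FVB sham kidneys. In this comparison 3 of 4 Nx mice lay below all sham mice, and Nx kidneys were 1.38-fold lower (-0.46, SE 0.15, adjusted p = 0.00867). The call was lost without mouse 6 of the FVB sham group at day 53, the highest Slc2a2 value of the 48 arrays (-0.35, adjusted p = 0.0615; 0.000307 to 0.0621 over all alternatives). B6 values at day 53 were 12.55, 12.41, 12.44 and 12.37 after Nx and 12.32, 12.57, 12.25 and 12.18 after sham, overlapping (0.11, SE 0.15, adjusted p = 0.724). The 2 lowest of 12 group means were the day 2 Nx groups, FVB at 11.31 ± 0.36 and B6 at 11.16 ± 0.25, and the next group up, B6 sham at day 2 (12.19 ± 0.17), lay beyond their SD. FVB sham at day 53 was highest (12.68 ± 0.23), beyond the SD of the next group, B6 Nx at day 53 (12.44 ± 0.08). The groups between these lay within an SD of their neighbours.

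Slc2a1, the basal glucose carrier of many cell types (chr4:119108745-119137330), changed least. It fell at day 2 and day 28 in FVB and at day 28 in B6, by 0.29, 0.42 and 0.32 on the log2 scale, and Nx and sham values overlapped in all 6 comparisons. The FVB day 28 values were 11.79, 11.70, 11.82 and 11.56 in FVB Nx kidneys, against 12.17, 11.78, 12.26 and 12.35 in FVB sham kidneys. Sham mouse 2 lay among the Nx values, and Nx kidneys were 1.34-fold lower (-0.42, SE 0.11, adjusted p = 0.00529). At day 2 the FVB values were 11.89, 11.42, 11.70 and 11.68 in FVB Nx kidneys, against 11.95, 11.84, 12.13 and 11.90 in FVB sham kidneys (-0.29, SE 0.11, adjusted p = 0.0261). The day 2 call was lost without mouse 2 of the FVB Nx group (-0.20, adjusted p = 0.143) or mouse 4 of the FVB sham group (-0.23, adjusted p = 0.105), and the largest adjusted p over the alternatives was 0.846. In B6 at day 28 the values were 12.02, 11.70, 11.83 and 11.77 in B6 Nx kidneys, against 12.12, 12.23, 12.24 and 12.01 in B6 sham kidneys (-0.32, SE 0.11, adjusted p = 0.0354). This call was lost without any of 6 of the 8 mice, Nx mice 4, 5 and 9 and sham mice 1, 3 and 5, with differences of -0.33 to -0.27 and adjusted p up to 0.111. Without the arrays that held pancreas transcripts, none of the 3 calls remained: the log2 differences were -0.07 at day 2 and -0.23 at day 28 in FVB and -0.14 at day 28 in B6 (adjusted p = 0.846, 0.676 and 0.713). The 3 remaining differences did not pass: -0.06 in FVB at day 53, -0.11 in B6 at day 2 and -0.27 in B6 at day 53 (adjusted p = 0.714, 0.459 and 0.0905). All 3 passed as lower when the medians of all probe sets with 1 symbol were made equal (-0.27, -0.27 and -0.36). The B6 day 53 difference also passed without sham mouse 1 (-0.36, adjusted p = 0.0294). Group means spanned 11.67 ± 0.19 (FVB Nx, day 2) to 12.15 ± 0.11 (B6 sham, day 28), and each neighbour in the order of 12 groups lay within an SD of the next. A pair of further Slc2a1 probe sets was lower in Nx kidneys in all 6 comparisons as well, by 0.14 to 0.50 and 0.30 to 0.68 on the log2 scale. In a limma fit over all kept probe sets, the first gave the same calls as the probe set used. The second, of the lowest mean, also passed in FVB at day 53 (-0.33, adjusted p = 0.034) and in B6 at day 2 (-0.35, adjusted p = 0.0326).

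Slc5a12, the low-affinity lactate carrier of the proximal tubule (chr2:110597299-110649345), fell about as much as Slc5a2 at day 2. Its day 2 values were 11.71, 11.61, 11.44 and 12.95 in FVB Nx kidneys, against 13.78, 13.75, 13.19 and 13.89 in FVB sham kidneys, 3.3-fold lower after Nx (-1.72, SE 0.22, adjusted p = 1.45e-08). Mouse 5 of the FVB Nx group, at 12.95, was the nearest to the sham values, which began at 13.19. B6 values at day 2 were 11.33, 11.08, 11.81 and 10.48 after Nx, against 12.91, 13.07, 13.11 and 12.93 after sham, without overlap (3.56-fold lower; -1.83, SE 0.22, adjusted p = 9.01e-09). Among the Nx mice, number 11 was lowest. Without the arrays that held pancreas transcripts the day 2 differences were -1.94 in FVB and -1.68 in B6, with 1 Nx array left in each strain. At day 28 the FVB values were 13.25, 13.14, 12.87 and 13.19 in FVB Nx kidneys, against 13.64, 13.70, 13.60 and 13.79 in FVB sham kidneys; all Nx mice lay below all sham mice, and the difference did not pass the threshold (-0.57, SE 0.22, adjusted p = 0.0698). It passed under 6 alternatives, among them the other Slc5a12 probe set (-0.72, adjusted p = 0.0167; 0.00881 to 0.507 over all alternatives). At day 53 FVB mice had 12.21, 12.62, 12.21 and 12.44 after Nx, against 13.43, 13.35, 13.29 and 13.65 after sham (2.08-fold lower, no overlap; -1.06, SE 0.22, adjusted p = 7.69e-05).

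In B6 mice Slc5a12 at day 28 measured 12.08, 12.52, 12.27 and 12.30 in B6 Nx kidneys, against 12.92, 12.83, 12.48 and 13.34 in B6 sham kidneys. Here 3 of 4 Nx mice lay below all sham mice, and the call was close to the threshold (-0.60, SE 0.22, adjusted p = 0.048). It was lost without Nx mouse 3, 5 or 9 or sham mouse 1, 3 or 6, with differences of -0.62 to -0.45 and adjusted p up to 0.194. At day 53 B6 mice had 12.22, 12.32, 12.46 and 12.12 after Nx, against 13.32, 13.06, 13.03 and 12.80 after sham, 1.71-fold lower without overlap (-0.77, SE 0.22, adjusted p = 0.0118). The 3 FVB sham groups held the highest means, 13.68 ± 0.08 (day 28), 13.65 ± 0.31 (day 2) and 13.43 ± 0.15 (day 53), of which neighbours in the order lay within an SD of each other. FVB Nx at day 28 (13.11 ± 0.17) came next, followed within an SD from neighbour to neighbour by the 3 B6 sham groups (12.89 ± 0.35 to 13.05 ± 0.21). A step beyond the SD stood above FVB Nx at day 28, and another separated these 4 groups from FVB Nx at day 53 (12.37 ± 0.20) and B6 Nx at day 28 and day 53 (12.29 ± 0.18 and 12.28 ± 0.14). FVB Nx at day 2 (11.93 ± 0.69) lay within an SD of these, and B6 Nx at day 2 (11.17 ± 0.55) stood below all other groups beyond its SD.

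Slc5a8, the high-affinity lactate carrier of the late proximal tubule (chr10:88885992-88929515), rose where Slc5a12 fell most. At day 2 its values were 11.91, 11.91, 12.23 and 11.87 in FVB Nx kidneys, against 11.48, 11.54, 11.07 and 11.61 in FVB sham kidneys, without overlap and 1.47-fold higher (0.55, SE 0.13, adjusted p = 0.000525). B6 kidneys at day 2 had 11.90, 11.84, 12.08 and 11.81 after Nx, against 11.43, 11.56, 11.61 and 11.32 after sham, 1.35-fold higher without overlap (0.43, SE 0.13, adjusted p = 0.00766). The B6 day 2 difference was 0.43, adjusted p = 0.0645 without the arrays that held pancreas transcripts, 0.32, adjusted p = 0.0541 with the pancreas mean as a covariate and 0.27, adjusted p = 0.0898 with the medians of all probe sets with 1 symbol made equal; over all alternatives the adjusted p ranged from 0.00443 to 0.0898. At day 28 Nx values ranged from 11.48 to 11.99 in FVB and from 11.68 to 12.21 in B6, overlapping the sham ranges of 11.31 to 11.54 in FVB and 11.61 to 12.09 in B6. Neither difference passed (0.32, SE 0.13, adjusted p = 0.0953 in FVB; 0.14, SE 0.13, adjusted p = 0.514 in B6), and the FVB one passed without Nx mouse 2 (0.40, adjusted p = 0.044). At day 53 the strains stood apart. FVB mice had 10.79, 11.58, 11.17 and 11.26 after Nx, against 11.29, 11.28, 11.46 and 11.46 after sham, with 3 of 4 Nx mice below all sham mice and mouse 7 above them (-0.17, SE 0.13, adjusted p = 0.284). B6 mice had 12.02, 11.93, 12.07 and 12.14 after Nx, against 11.44, 11.84, 11.61 and 11.58 after sham, all Nx mice higher (0.42, SE 0.13, adjusted p = 0.0247). The B6 day 53 call was lost without any of 6 of the 8 mice, Nx mice 1, 4 and 7 and sham mice 1, 5 and 6, with differences of 0.36 to 0.43 and adjusted p up to 0.0843. It was 0.38, adjusted p = 0.0702 without the arrays that held pancreas transcripts and 0.34, adjusted p = 0.0734 with those medians made equal, which brought the FVB day 53 difference past the threshold (-0.39, adjusted p = 0.0136; 0.0136 to 0.873 over all alternatives). B6 Nx at day 53 had the highest group mean (12.04 ± 0.09) and FVB Nx at day 53 the lowest (11.20 ± 0.33). Each neighbour in the order of 12 groups lay within an SD of the next.

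**Figure D2:**
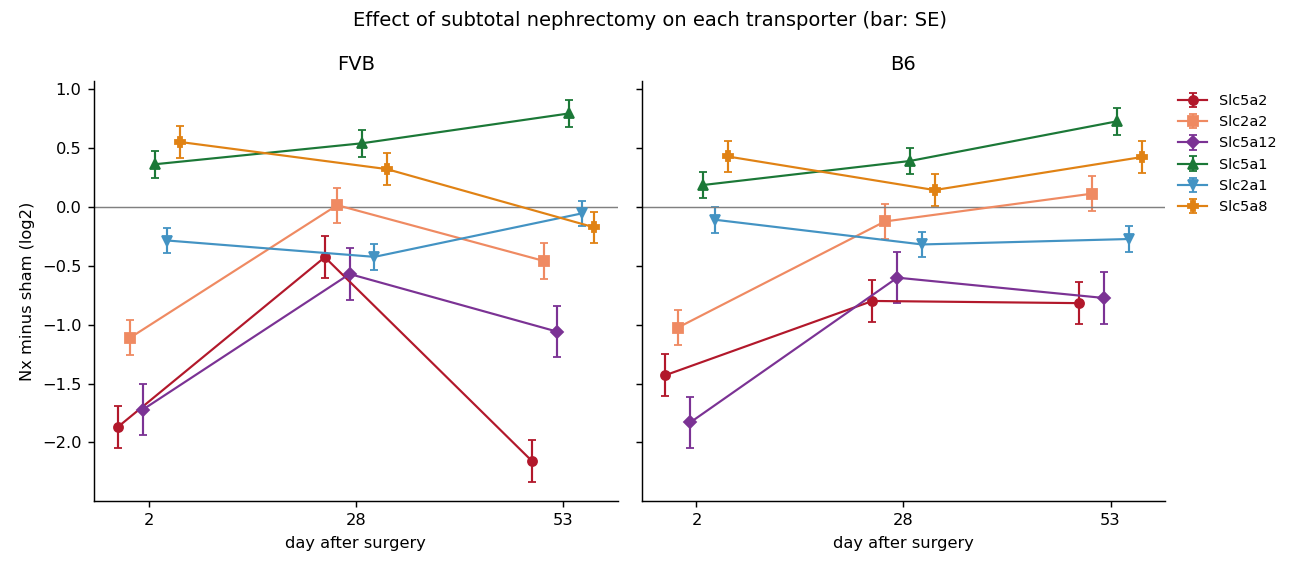
Log2 difference between Nx and sham kidneys (vertical axis) at day 2, day 28 and day 53 after surgery (horizontal axis) for the 6 carriers in FVB (left) and B6 (right), with the SE of the fit as bars and lines joining the days. Slc5a2 is at -1.87, -0.43 and -2.16 in FVB and at -1.43, -0.80 and -0.82 in B6, and Slc5a1 lies above 0 throughout.

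The strains parted at day 53. The difference of the surgery effect, FVB minus B6, was tested for each gene at each day, which makes 18 differences. At day 53 it passed for 3 of the 6 genes, against 29.1% of all genes tested, and all 3 were lower in FVB. Slc5a2 differed most (-1.34, SE 0.25, adjusted p = 8.35e-05; 95% interval -1.85 to -0.83). The effect was -2.16 in FVB and -0.82 in B6. It passed when any 1 of the 16 mice was left out, with values of -1.54 to -1.17. The Slc5a8 difference (-0.60, SE 0.19, adjusted p = 0.0139) set -0.17 in FVB against 0.42 in B6. It was lost without mouse 4 of the FVB Nx group, the lowest Slc5a8 value of the 48 arrays (-0.46, adjusted p = 0.0545). For Slc2a2 (-0.57, SE 0.21, adjusted p = 0.0369) the effect was -0.46 in FVB and 0.11 in B6. This call was lost without any of 8 of the 16 mice, FVB Nx mice 4 and 8, FVB sham mouse 6, B6 Nx mice 1 and 4 and B6 sham mice 1, 5 and 6, with differences of -0.57 to -0.46 and adjusted p up to 0.108. Without the arrays that held pancreas transcripts the 3 differences were -1.21 for Slc5a2, -0.54 for Slc5a8 and -0.52 for Slc2a2, of which only that of Slc2a2 no longer passed (adjusted p = 0.105).

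Slc5a1, Slc2a1 and Slc5a12 gave no strain difference past the threshold at day 53. The 95% intervals were -0.26 to 0.39 for Slc5a1, -0.10 to 0.53 for Slc2a1 and -0.91 to 0.34 for Slc5a12, and differences within those bounds are not excluded by the data. At day 2 and day 28 limma called 0 of 6 genes, against 4.41% and 0.129% of all genes. At an unadjusted p under 0.05 there were 0 of 6 at either day, against 2503 of 13174 genes at day 2 and 594 at day 28. For Slc5a2 the intervals were -0.95 to 0.07 at day 2 and -0.13 to 0.88 at day 28. Without the arrays that held pancreas transcripts its day 28 difference was 1.08, adjusted p = 0.0352, with 1 Nx array in each strain; over all alternatives the adjusted p ranged from 0.0352 to 1.

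**Figure D3:**
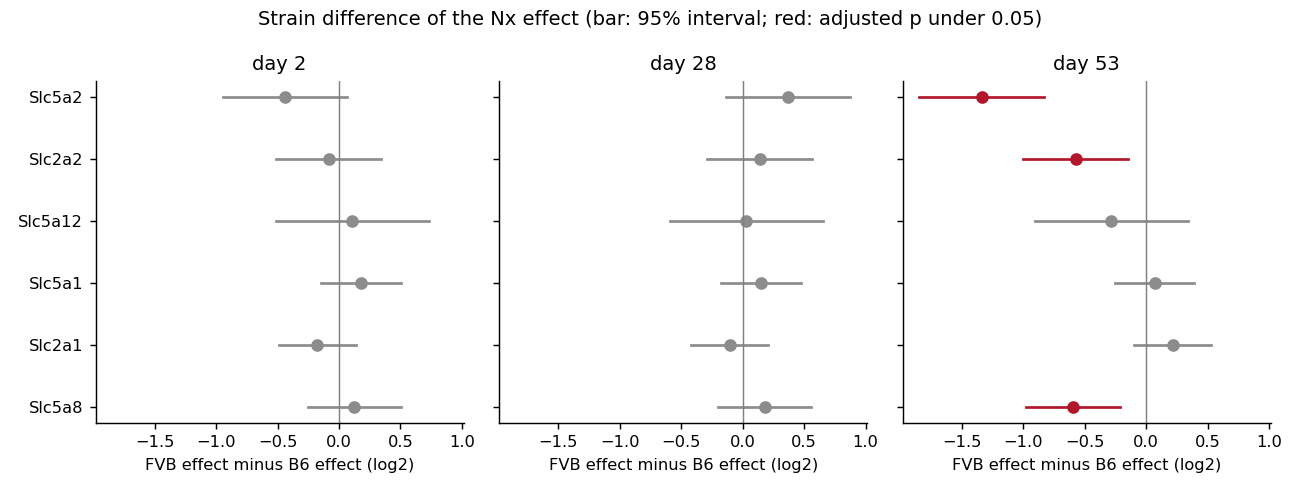
Difference of the log2 surgery effect, FVB minus B6 (horizontal axes), for the 6 carriers (rows) at day 2, day 28 and day 53 (panels), with 95% intervals as bars and differences past the threshold in red. At day 53 Slc5a2, Slc2a2 and Slc5a8 lie at -1.34, -0.57 and -0.60.

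Between day 2 and day 28 the surgery effect became smaller for some of the carriers that had fallen at day 2. In FVB the change passed for 3 of the 6 genes (25.2% of all genes): Slc5a2 by 1.44, SE 0.25, adjusted p = 4.11e-05, Slc2a2 by 1.13, SE 0.21, adjusted p = 0.000118 and Slc5a12 by 1.15, SE 0.31, adjusted p = 0.0051. In B6 it passed for 2 (8.86% of all genes), Slc2a2 by 0.90, SE 0.21, adjusted p = 0.00406 and Slc5a12 by 1.23, SE 0.31, adjusted p = 0.0077. The B6 change of Slc5a2 did not pass (0.63, SE 0.25, adjusted p = 0.115), and it did without Nx mouse 9 of day 2 (0.77) or Nx mouse 3 of day 28 (0.81). Without the arrays that held pancreas transcripts, the Slc2a2 changes were 0.90, adjusted p = 0.059 in FVB and 0.62, adjusted p = 0.281 in B6, and the Slc5a12 change in B6 was 0.87, adjusted p = 0.177. Between day 28 and day 53 the FVB effect on Slc5a2 moved back down (-1.73, SE 0.25, adjusted p = 2.2e-06), and that on Slc5a8 fell as well (-0.49, SE 0.19, adjusted p = 0.0468), 2 of the 6 genes against 26.3% of all genes. The Slc5a8 change was lost without any of 9 of the 16 mice, FVB Nx mice 3 and 7 of day 28 and 4 and 8 of day 53 and FVB sham mice 1, 3 and 4 of day 28 and 5 and 6 of day 53, with adjusted p up to 0.153, and it was -0.17, adjusted p = 0.675 without the pancreas arrays. It was also lost with no filter (0.0699), array weights (0.0668) and a fit to its own arrays (adjusted p = 0.1). Slc2a2 (-0.47, SE 0.21, adjusted p = 0.094), Slc2a1 (0.37, SE 0.15, adjusted p = 0.0753) and Slc5a12 (-0.49, SE 0.31, adjusted p = 0.261) did not pass. Slc2a2 passed with equal medians over the genes tested (adjusted p = 0.0429) or over all probe sets with 1 symbol (0.0298), Slc2a1 with quantile normalisation (0.0373) and Slc5a12 in a fit to its own arrays (0.028). Over all alternatives the adjusted p ranged up to 0.726 for Slc2a2, 0.732 for Slc2a1 and 0.45 for Slc5a12. Slc2a2 also passed without FVB Nx mouse 10 of day 53 (-0.58), and Slc2a1 without that mouse (0.45) or FVB sham mouse 2 of day 28 (0.49). In B6 limma called 0 of 6 genes between day 28 and day 53, and 0% of all genes. At an unadjusted p under 0.05 there were 1 of the 6 genes, Slc5a1 (0.34), and 405 of all genes. The B6 change of Slc5a2 was -0.02 (interval -0.52 to 0.49).

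Sham kidneys differed between strains for 3 of the 6 genes, against 32.5% of all genes tested. Over the 3 days, FVB sham kidneys had more Slc5a12 than B6 sham kidneys (0.60, SE 0.13, adjusted p = 0.000184), and the FVB range, 13.19 to 13.89, shared only its lower end with the B6 range, 12.48 to 13.34. Slc5a1 (-0.24, SE 0.07, adjusted p = 0.00351) and Slc5a8 (-0.24, SE 0.08, adjusted p = 0.0143) were lower in FVB sham kidneys. Slc2a2 (0.21, adjusted p = 0.0617), Slc5a2 (0.20, adjusted p = 0.131) and Slc2a1 (-0.01, adjusted p = 0.974) did not pass. The Slc2a2 difference passed without any of 5 of the 24 sham mice, B6 mice 5 of day 2, 6 of day 28 and 3 of day 53 and FVB mice 4 of day 2 and 1 of day 28, with differences of 0.23. It also passed with array weights (adjusted p = 0.0107) and with equal medians over the genes tested (0.0441) or over all probe sets with 1 symbol (0.0437), and ranged up to 0.136 over all alternatives. Slc5a2 passed in a fit to the sham arrays alone (adjusted p = 0.00687) and with array weights (0.0128), and ranged up to 0.209. Within sham kidneys, the mean of day 28 and day 53 against day 2 gave 0 of 6 calls by limma in either strain, against 3.58% of all genes in FVB and 0.782% in B6. At an unadjusted p under 0.05 there were 0 of 6 in FVB, where 2097 of 13174 genes had one, and 1 of 6 in B6, Slc5a8 (0.24), where 1473 of 13174 did.

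Other sodium-coupled carriers of the Slc5 family were mostly lower after Nx. Of all genes tested, 30.0%, 8.81% and 27.8% fell in FVB and 24.4%, 9.14% and 6.68% in B6 at day 2, day 28 and day 53. The shares that rose were 24.8%, 7.35% and 25.9% in FVB and 20.2%, 9.85% and 8.03% in B6. They stand beside the counts of this list and of those that follow. Of 5 measured genes of 8 listed, 4 fell and 1 rose in FVB at day 2 and in B6 at day 2, and 4 fell in FVB at day 53, 2 fell and 1 rose in FVB at day 28, and 2 fell in B6 at day 28 and at day 53. Slc5a6, which takes up biotin and pantothenate, and Slc5a3, which takes up the osmolyte myo-inositol, fell in all 6 comparisons. In FVB at day 53 Slc5a6 was at -2.59, SE 0.26, adjusted p = 9.3e-11 and Slc5a3 at -1.67, SE 0.18, adjusted p = 3.18e-10. Slc5a6 differences were -1.80 in FVB and -1.91 in B6 at day 28, when the Slc5a2 differences were -0.43 and -0.80. Slc5a9, a mannose and fructose carrier, fell at day 2 in FVB (-1.94, SE 0.24, adjusted p = 7.02e-09) and in B6 (-1.80, SE 0.24, adjusted p = 7.37e-08). Slc5a10, a further carrier of fructose and mannose, rose at day 2 in FVB (0.87, SE 0.13, adjusted p = 6e-07) and B6 (0.61) and at day 28 in FVB (0.56, SE 0.13, adjusted p = 0.0023). The list median was -1.09, -0.59 and -1.09 in FVB and -1.22, -0.55 and -0.64 in B6 at day 2, day 28 and day 53, where the median of all genes lay between -0.03 and -0.01.

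Among the passive Slc2 carriers, 8 of 9 listed genes were measured besides Slc2a1 and Slc2a2. In FVB 5 fell and 1 rose at day 2, 0 changed at day 28 (4 had an unadjusted p under 0.05) and 6 fell and 1 rose at day 53. In B6 3 fell and 1 rose at day 2 (Slc2a10, by 0.22), and 2 fell at day 28 and at day 53. Slc2a12, a glucose carrier, fell in 5 of 6 comparisons, with -2.51, SE 0.25, adjusted p = 4.16e-11 in FVB at day 53 and -1.79, SE 0.25, adjusted p = 8.69e-08 at day 2. The urate carrier Slc2a9 also fell in 5 of 6, with -1.43, SE 0.28, adjusted p = 0.000272 in B6 at day 53. The fructose carrier Slc2a5 fell in FVB at day 53 (-1.92, SE 0.22, adjusted p = 9.34e-10) and was not called elsewhere, with differences of -0.51 to 0.06. The difference between strains at day 53 passed (-1.98, SE 0.31, adjusted p = 5.34e-06). The insulin-responsive carrier Slc2a4 fell in FVB at day 2 (-1.18, SE 0.21, adjusted p = 1.11e-05) and day 53 (-1.90) and in B6 at day 2 (-0.63). Slc2a3, the high-affinity glucose carrier of neurons and leukocytes, was picked after its values were seen and rose in FVB at day 2 (1.88) and day 53 (2.78), with B6 values of 0.27 and 0.02 that did not pass. The strain difference of Slc2a3 at day 53 passed (2.76, SE 0.61, adjusted p = 0.000617). All 5 macrophage markers also rose in FVB at these days, with a list mean of 11.27 ± 0.41 in Nx and 7.63 ± 0.60 in sham kidneys at day 2 and 10.70 ± 0.22 in Nx and 6.83 ± 0.30 in sham kidneys at day 53 (SD, n = 4). In B6, where Slc2a3 was not called, 5 of 5 rose at day 2 and 4 of 5 at day 53, with a list mean of 10.59 ± 0.53 in Nx and 7.86 ± 0.18 in sham kidneys at day 2 and 9.15 ± 0.23 in Nx and 7.09 ± 0.40 in sham kidneys at day 53. Their part in the Slc2a3 values was not tested.

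Monocarboxylate carriers of the Slc16 family and their chaperones split. Of 6 measured genes of 7 listed, 4 fell and 2 rose in FVB at day 2, 1 fell and 1 rose at day 28, and 4 fell and 1 rose at day 53. In B6 4 fell and 1 rose at day 2, 2 fell and 1 rose at day 28 and 1 fell at day 53. Slc16a1, a widely expressed lactate carrier, rose in 5 of 6 comparisons, with 1.00, SE 0.18, adjusted p = 2e-05 in B6 at day 2 and 0.78, SE 0.18, adjusted p = 0.00193 in FVB at day 28. Slc16a7, a lactate and pyruvate carrier of higher affinity, fell in all 6 comparisons, with -3.19, SE 0.17, adjusted p = 1.02e-17 in FVB at day 53 and -0.70 in B6. The strain difference was -2.49, SE 0.25, adjusted p = 1.16e-09. Slc16a4 fell in FVB at day 53 (-2.62, SE 0.21, adjusted p = 1.58e-13). Bsg, a chaperone of some carriers of the Slc16 family, fell at day 2 in FVB (-0.82, SE 0.08, adjusted p = 3.26e-11) and B6 (-0.44, SE 0.08, adjusted p = 1.62e-05).

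**Figure D4:**
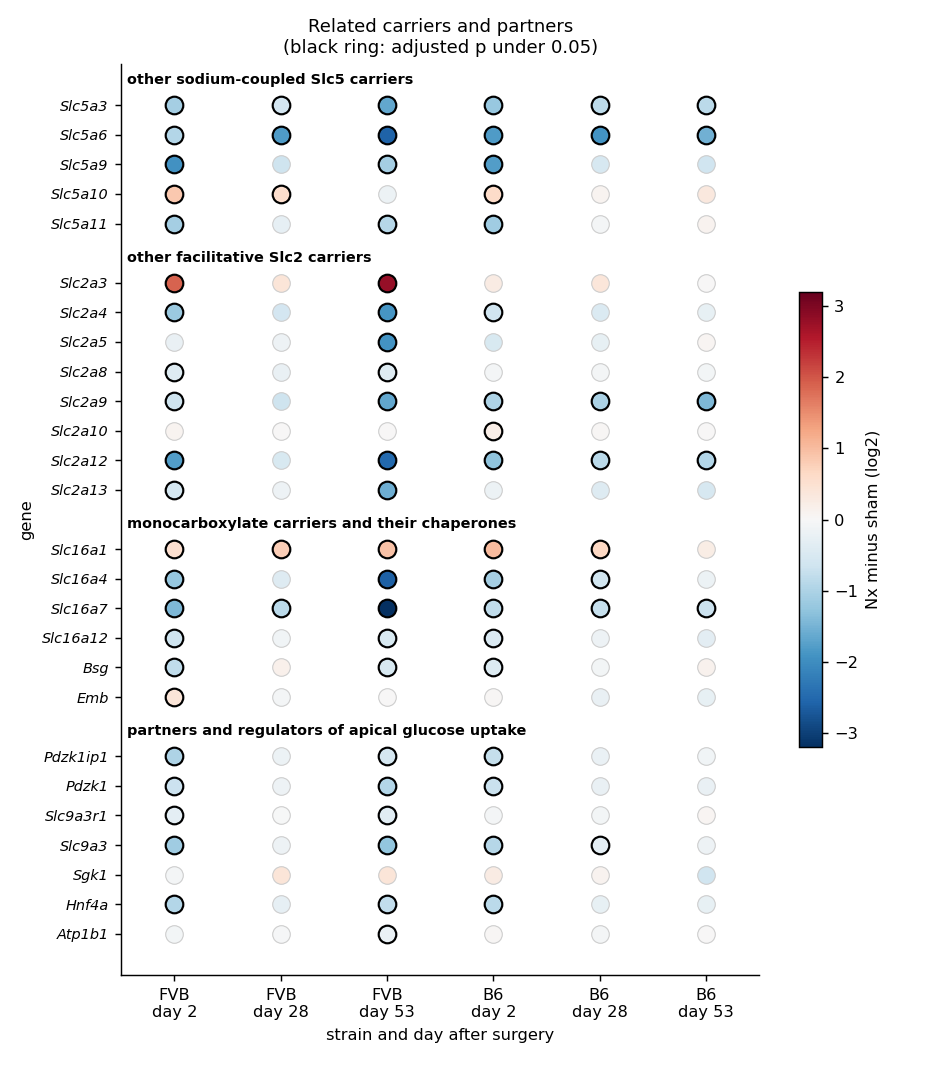
Log2 difference between Nx and sham kidneys (colour, blue lower and red higher in Nx) for related carriers and partners (rows, by list) in FVB and B6 at day 2, day 28 and day 53 (columns). Black rings mark an adjusted p under 0.05; Slc5a6, Slc5a3 and Slc16a7 carry a ring in all 6 columns.

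Partners of apical glucose uptake fell mostly at day 2 in both strains and at day 53 in FVB. The shares of all genes lower were also largest there, 30.0% in FVB and 24.4% in B6 at day 2 and 27.8% in FVB at day 53. Of 7 measured genes of 10 listed, 5 fell in FVB at day 2, 0 at day 28 (1 with an unadjusted p under 0.05) and 6 at day 53. In B6 4 fell at day 2, 1 at day 28 and 0 at day 53 (2 with an unadjusted p under 0.05). Pdzk1ip1, whose product is an accessory subunit of the Slc5a2 carrier, fell at day 2 in FVB (-0.99, SE 0.09, adjusted p = 3.17e-12) and in B6 (-0.76, SE 0.09, adjusted p = 3.07e-09) and at day 53 in FVB (-0.55). Its B6 differences at day 28 and day 53 were -0.20 and -0.12, not past the threshold, when Slc5a2 was at -0.80 and -0.82. Slc9a3, the apical sodium-proton exchanger, fell in FVB at day 2 (-1.14, SE 0.10, adjusted p = 7.01e-12) and day 53 (-1.25, SE 0.10, adjusted p = 5.27e-13) and in B6 at day 2 (-0.91, SE 0.10, adjusted p = 3.3e-09) and day 28 (-0.33, SE 0.10, adjusted p = 0.0202). The scaffold Pdzk1 fell in FVB at day 53 (-0.95, SE 0.12, adjusted p = 6.23e-09), with -0.24 in B6, not past the threshold, and the strain difference passed (-0.71, SE 0.16, adjusted p = 0.00102).

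Segment markers were set beside the carriers because whole-kidney values move with the make-up of the tissue. All 6 markers of the early proximal segments fell in FVB at day 2 and day 53 and in B6 at day 2. Of all genes tested, 30.0%, 27.8% and 24.4% fell in these comparisons. At day 28 limma called 0 of 6 in either strain (1 in FVB and 2 in B6 with an unadjusted p under 0.05), and in B6 at day 53 1 rose (Slc22a8, an organic anion carrier, 0.65) and 0 fell. Their mean level per mouse, Nx minus sham, was -1.82, -0.15 and -1.48 in FVB and -1.43, -0.30 and -0.14 in B6 at day 2, day 28 and day 53 (the list's median in FVB at day 28 had the other sign, 0.02), and Slc5a2 differed by -1.87, -0.43 and -2.16 in FVB and -1.43, -0.80 and -0.82 in B6. For the general proximal tubule list, 6, 2 and 6 of 7 fell in FVB and 6, 4 and 3 of 7 in B6 at day 2, day 28 and day 53, 1 rose in FVB at day 28 and in B6 at day 28 and day 53 (Slc22a6, an organic anion carrier). The mean differences were -1.28, -0.17 and -1.05 in FVB and -1.18, -0.24 and -0.09 in B6. Of the 4 late segment markers, 3, 1 and 1 fell in FVB and 2, 1 and 1 fell in B6 at day 2, day 28 and day 53, and 1 rose each time, Cyp7b1. The mean differences were 0.18, -0.16 and -0.91 in FVB and -0.14, -0.05 and 0.07 in B6. The medians had the other sign in FVB at day 2 (-0.43) and day 53 (0.01) and in B6 at day 53 (-0.07). Slc5a1 rose in FVB at all 3 days and in B6 at day 28 and day 53, and Slc5a8 rose at day 2 in both strains and in B6 at day 53. Collecting duct markers, the list nearest to one site of Slc2a1, fell in 5, 1 and 5 of 6 genes in FVB and in 4, 3 and 2 of 6 in B6 at day 2, day 28 and day 53, while Slc2a1 differed by -0.29, -0.42 and -0.06 in FVB and -0.11, -0.32 and -0.27 in B6. Of 5 endothelial markers, 3 fell and 1 rose in FVB at day 2 and day 53, 0 fell and 2 rose in FVB at day 28, 3 fell in B6 at day 2 and day 28, and 1 fell and 1 rose in B6 at day 53. By exact permutation test of the list mean per mouse, two-sided, 4 against 4 mice allow no p below 0.0286, and the smallest adjusted value over the 90 tests was 0.0559, so no list mean could be called. The part of these markers in the results was not tested.

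Among themselves, over the 12 group means, Slc5a12 went with Slc5a2 (Pearson r = 0.833) and with Slc2a2 (0.811), and Slc5a1 went against Slc5a2 (-0.709). Over the deviations of the 48 arrays from their group means, the values were 0.446 and 0.642 for the first pairs and 0.15 for Slc5a1 and Slc5a2. These are descriptions over arrays that share a surgery and a scale. The genes nearest to each carrier over the 12 group means were also searched for. The search left out the carriers followed here and genes with a provisional name, such as those starting with Gm or ending in Rik. For Slc5a2 the nearest were Tomm7 (0.995 Pearson, 0.993 Spearman), Nadk2 (0.988 Pearson, 0.979 Spearman) and Col4a4 (0.987 Pearson, 0.979 Spearman). For Slc2a2 they were Evc (0.981 Pearson, 0.916 Spearman), Otud6b (0.979 Pearson, 0.825 Spearman) and Dao (0.979 Pearson, 0.783 Spearman). Dao is the D-amino acid oxidase of proximal cells. For Slc5a12 they were Lpgat1 (0.985 Pearson, 0.937 Spearman), Otud1 (0.976 Pearson, 0.958 Spearman) and Aven (0.972 Pearson, 0.923 Spearman), and for Slc5a1 Svep1 (0.93 Pearson, 0.93 Spearman), Hdac9 (0.929 Pearson, 0.93 Spearman) and Igfbp2 (0.927 Pearson, 0.93 Spearman). Slc2a1 had Fermt2 (0.937 Pearson, 0.93 Spearman), Pax8 (0.899 Pearson, 0.818 Spearman) and Rabepk (0.892 Pearson, 0.839 Spearman) as its nearest genes, Pax8 being a transcription factor of the nephron. Slc5a8 was nearest to Slc5a10 (0.915 Pearson, 0.895 Spearman), Abcd3 (0.887 Pearson, 0.832 Spearman) and Gstm4 (0.869 Pearson, 0.874 Spearman). Among the genes searched, the nearest to this lactate carrier was thus another Slc5 family member. Both genes rose at day 2 in both strains. Their calls parted in FVB at day 28, where only Slc5a10 rose, and in B6 at day 53, where only Slc5a8 rose.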

How the data were processed

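RNA of 48 whole kidneys was measured on Affymetrix mouse arrays, 1 array per mouse. The log2 values were used as deposited; MAS5 is named in the submitters' processing notes without a role, and the normalisation is not given in the sources used here. Of 45101 probe sets, 34945 had 1 gene symbol, 932 several and 9211 none in the annotation used here; symbols were updated through RefSeq (GRCm38.p6). Probe sets above the 40th percentile (2.277) on at least 4 arrays were kept (24197), and each gene was taken as the one with the highest mean, 13174 genes. limma 3.58.1 (R 4.3.3) fitted 12 group means over all 48 arrays with an intensity trend; tests were two-sided, with Benjamini-Hochberg adjustment over all genes. The fit was tested on simulated data. Labels do not say whether mice share a cage or a day. The p-values measure the spread between mice within groups, and would leave out a spread between cages or days. Same-numbered mice were not treated as pairs: of 10 such pairs, deviations from the group means correlated at -0.251 to 0.378. Named related carriers are the 2 with the smallest p per list and surgery comparison. The 6 genes and the lists were chosen with earlier results of these data known. Alternatives covered scaling, filter, probe set, model and left-out arrays.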

Additional observations from a re-analysis of the deposited data

Results flagged for a closer look

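Of 72 groups of 4 mice looked at, 1 mouse stood far from the other 3 in 3 groups; chance flags about 1 in 20 groups. Slc2a2 in FVB Nx mouse 2 at day 28 was 12.33, below the others at 12.46 to 12.47. Slc2a2 in FVB sham mouse 6 at day 53 was 13.02, above the others at 12.52 to 12.59. Slc5a8 in FVB Nx mouse 4 at day 2 was 12.23, above the others at 11.87 to 11.91.

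Of 18 tested differences of the surgery effect between strains, FVB minus B6, 3 passed in limma, all at day 53: Slc5a2 at -1.34 (adjusted p = 8.35e-05), Slc2a2 at -0.5723 (adjusted p = 0.0369) and Slc5a8 at -0.5961 (adjusted p = 0.0139).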

How the results depend on the processing

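Of 2464 values compared with their alternatives, 2346 kept their side of the threshold, 82 no longer passed, 36 newly passed and 0 reversed. Within the 2346, 67 values that did not pass in either setting changed sign. The number of the 6 genes called in B6 at day 28 (4) was 2 with no filter, 0 in a fit to its 8 arrays alone, 2 with the pancreas mean as a covariate and 2 without arrays with pancreas transcripts, and 1 to 3 when 1 mouse was left out. For FVB day 53 minus day 28 (2) it was 1 with no filter, 1 with array weights, 1 without the pancreas arrays and 1 to 4 when 1 mouse was left out. FVB day 28 (2) gave 4 with array weights and 0 without the pancreas arrays. The sham strain comparison (3) gave 5 with array weights, the strain difference at day 28 (0) gave 1 and B6 day 28 minus day 2 (2) gave 0 without the pancreas arrays. The strain difference at day 53 (3) gave 1 to 3 when 1 mouse was left out. The causes were not tested. With mouse number as a replicate block (consensus correlation 0.126) Slc5a2 in FVB at day 2 was -1.87, and no call of the 6 genes changed.

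Making the medians of all probe sets with 1 symbol equal, chosen after seeing the data, moved the all-gene median of the surgery comparisons by -0.225 to -0.0614. The share of higher genes among those called was then 23%, 31.3% and 25.7% in FVB and 24.9%, 25.6% and 32.2% in B6 at day 2, day 28 and day 53, against 45.3%, 45.5% and 48.2% in FVB and 45.2%, 51.9% and 54.6% in B6 as deposited. It was 39% against 51.5% for the strain difference at day 2, 31.7% against 48.8% at day 53, 74.8% against 50.5% for FVB day 28 minus day 2 and 29.4% against 52% for FVB day 53 minus day 28. Equal medians of the genes tested gave 61% for FVB day 28 minus day 2, 40.3% for B6 day 28 and 25.2% against 36.9% for later B6 sham kidneys. With 4 arrays per group, the precision is limited by their number.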
